A study of Mus musculus with 9 samples.

Results

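Transcripts of the neurotrophins and their receptors were followed in the whole mouse cochlea across age and long-term calorie restriction. The genes are Bdnf and Ntf3, which encode the ligands, Ntrk2 and Ntrk3, which encode the receptor kinases TrkB and TrkC, Ngfr, which encodes the receptor p75, and Sort1, which encodes sortilin. Probe sets annotated with exactly 1 gene symbol among these were taken, which gave 24 of the 45037 probe sets in the deposited table. These 24 covered 5 of the 6 genes, where the whole table named 18193 genes: 2 probe sets for Bdnf, 8 for Ntrk2, 8 for Ntrk3, 3 for Ngfr and 3 for Sort1. No probe set carried Ntf3 as its single symbol in the annotation used here, so Ntf3 is not reported.

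The mice were male C57BL/6. The calorie-restricted group (CR) was 15 months old and ate 62 kcal per week from 2 months of age onward, a reduction of 26%. The middle-aged control group (MC) was 15 months old and received 84 kcal per week of control diet, and the young control group (YC) was 4 months old on the same allowance. Each group had 3 samples, each a pool of 4 cochleae from 2 mice, hybridised to 1 single-colour Affymetrix array. With whole cochlea as the material, fewer cells of a type and less RNA per cell cannot be told apart.

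Neurotrophins are secreted as pro-forms that are cleaved to mature ligands. BDNF acts through TrkB and NT-3 mainly through TrkC, while p75 binds all neurotrophins and, together with sortilin, their pro-forms. In the inner ear, hair cells and supporting cells supply BDNF and NT-3 to the spiral ganglion neurons, which carry both Trk receptors and depend on these factors for their innervation and survival. Ntrk2 and Ntrk3 each give rise to full-length kinase receptors and to truncated forms without the kinase, and glia carry much of the truncated TrkB. The annotation does not say which form a probe set reports.

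Values below are normalized log2 signals, and a log2 change is the difference between group means on that scale with its standard error (SE). Array medians of the deposited signal fell into a low class, from 526.8 to 626.6 in the 3 CR samples and YC sample 1, and a high class, from 842.4 to 1103.9 in the 3 MC samples and YC samples 2 and 3. The CR to MC comparison therefore lies wholly across these classes, and the 2 cannot be told apart within it. As for the tissue, 23 of 23 spiral ganglion neuron markers, 11 of 14 supporting cell markers and 7 of 15 hair cell markers had a probe set past the signal filter. So did 25 of 25 skeletal muscle and 20 of 24 brain tissue markers, and 13702 of the 18193 genes named in the whole table. The filter is not a detection call, and some marker totals include genes absent from the array.

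No neurotrophin or receptor probe set passed the test in any of the comparisons. A signal filter kept probe sets whose mean log2 signal was at or above 8.95, the 40th percentile, which left 27022 for the test and 14 of the 24: 1 of Bdnf, 6 of Ntrk2, 3 of Ntrk3, 1 of Ngfr and 3 of Sort1. At a limma adjusted p under 0.05, 0 of the 14 were called for CR minus MC, where 0.0925% of all probe sets were called. The counts were also 0 of 14 for MC minus YC and 0 of 14 for CR minus YC, against 0% of all probe sets in each. At an unadjusted p under 0.05, 2 of 14 stood out for CR minus MC (18.5% of all probe sets), 0 of 14 for MC minus YC (3.39%) and 2 of 14 for CR minus YC (10.8%).

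The median log2 change of the 14 was -0.03 for CR minus MC, with 7 positive and 7 negative values, beside a median of 0.08 over all 27022 probe sets. MC minus YC had a median of 0.07, with 8 positive and 6 negative values, beside 0.02 over all. For CR minus YC it was 0.03, with 7 positive and 7 negative, beside 0.08 over all. CR and MC samples did not overlap for 4 of the 14 probe sets, 1 higher and 3 lower in CR, and neither did 37.8% of all tested (19.5% higher and 18.2% lower). MC and YC samples overlapped for all 14, where 5.88% of all tested did not overlap (2.97% higher and 2.92% lower in MC), and CR and YC samples did not overlap for 2 of 14, against 20.5% (11.4% higher and 9.1% lower in CR). These members' shares lay near or below the shares over all probe sets. The comparisons share samples (MC in CR minus MC and MC minus YC, YC in MC minus YC and CR minus YC), so their values are not independent, and their p-values measure the spread between these pools. The closest probe set under the filter was Ntrk3 1426003_at with a mean of 8.94, and the closest above it was Ntrk2 1446712_at with 9.16.

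**Figure D1:**
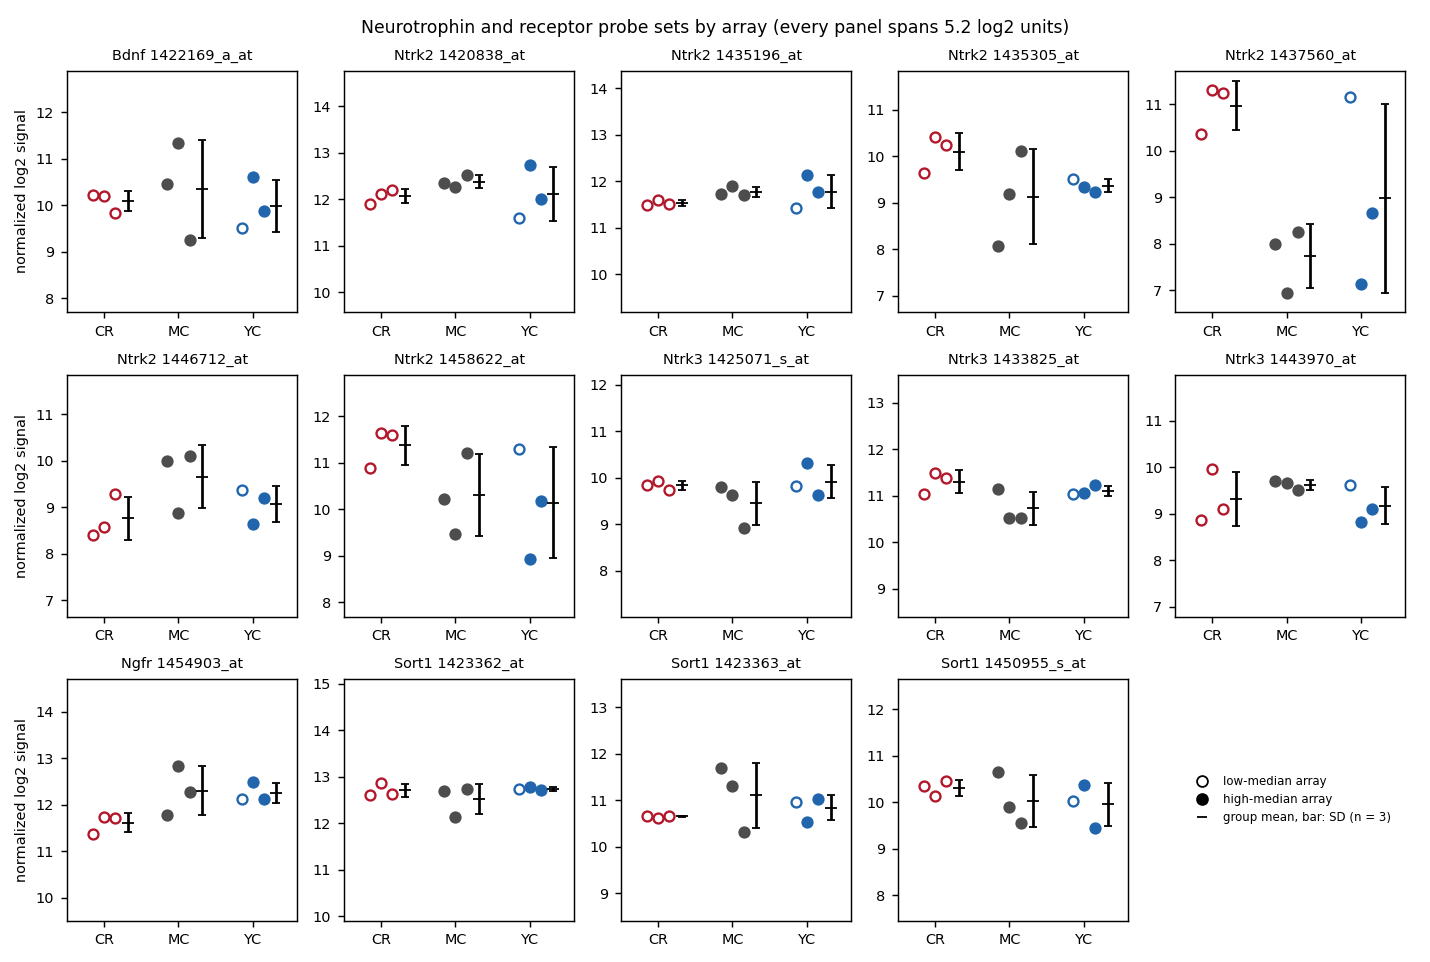
Normalized log2 signal of the 14 probe sets past the signal filter, 1 panel each, with 1 point per array for CR, MC and YC; open points are the 4 low-median arrays, filled points the 5 high-median arrays, and bars show the mean and SD (n = 3). In most panels the groups overlap; in that of Ntrk2 1437560_at the open points, YC sample 1 among them, lie at or above 10.36 and the filled ones at or below 8.66.

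Bdnf, the ligand of TrkB, was measured by probe set 1422169_a_at. Its log2 signals were 10.22, 10.20 and 9.84 in CR samples, 10.47, 11.35 and 9.25 in MC samples, and 9.51, 10.61 and 9.87 in YC samples. The MC samples spread widest, from the highest to the lowest of all 9 values, and they enclosed both other groups. The deposited signals behind them were 964, 1014 and 762 in CR, 1545, 2536 and 793 in MC, and 493, 1870 and 1002 in YC. The log2 change was -0.27 ± 0.52 (SE) for CR minus MC, with a limma adjusted p of 0.789 and a 95% interval from -1.42 to 0.88. The MC minus YC change was 0.36 ± 0.52 (interval -0.79 to 1.51) and for CR minus YC 0.09 ± 0.52 (interval -1.06 to 1.24). Both signs involving MC turned without MC sample 2, to 0.23 ± 0.51 for CR minus MC and -0.14 ± 0.51 for MC minus YC. With all arrays kept, CR minus MC was 0.46 ± 0.92 with array class as a term. It was 0.04 ± 0.70 with the array median as a covariate. The other Bdnf probe set, 1422168_a_at, was under the filter with a mean of 8.15, and its 3 fitted changes lay between -0.13 and 0.27.

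Ntrk2, which encodes the BDNF receptor TrkB, had 6 tested probe sets that did not move together. For CR minus MC their log2 changes ran from -0.90 to 3.24, with 3 positive and 3 negative. Their MC minus YC changes ran from -1.25 to 0.59, again with 3 positive and 3 negative.

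The brightest Ntrk2 probe set, 1420838_at, had log2 signals of 11.90, 12.12 and 12.20 in CR samples, against 12.35, 12.26 and 12.53 in MC samples. The YC samples had 11.59, 12.74 and 12.01, a range that enclosed both 15-month groups. The log2 change was -0.31 ± 0.28 for CR minus MC (limma adjusted p = 0.555) and 0.27 ± 0.28 for MC minus YC (adjusted p = 1). Probe set 1435196_at was close to it, with 11.48, 11.60 and 11.52 in CR samples and 11.72, 11.89 and 11.71 in MC samples. Its YC values of 11.43, 12.13 and 11.77 again spanned the others. Here the change was -0.24 ± 0.24 for CR minus MC (adjusted p = 0.593) with an interval from -0.77 to 0.29, and 0.00 ± 0.24 for MC minus YC with an interval from -0.53 to 0.53. For both bright probe sets all CR samples lay below all MC samples, as 18.2% of all tested probe sets did. The sign of both CR minus MC changes turned positive when median centring replaced quantile normalization (0.56 and 0.49) and when array class entered the model (0.47 and 0.28).

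Ntrk2 probe set 1437560_at had the largest difference among the 14. Its deposited signals were 1102, 2521 and 2394 in CR samples and 293, 128 and 369 in MC samples. In YC the signals were 2215, 193 and 451, so that YC sample 1 stood with the CR samples and the other young samples with MC. On the log2 scale the values were 10.36, 11.30 and 11.24 in CR, 7.99, 6.94 and 8.24 in MC, and 11.15, 7.12 and 8.66 in YC. The probe set passed the filter of 8.95, with a mean of 9.22, only through the CR samples and YC sample 1; the MC mean of 7.73 lies under it, where signals are dim. CR minus MC was 3.24 ± 0.87, a 9.46-fold difference against that dim group, and it did not pass (limma adjusted p = 0.162, unadjusted p = 0.00354). MC minus YC was -1.25 ± 0.87 (adjusted p = 1) and CR minus YC 1.99 ± 0.87 (adjusted p = 0.462).

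This probe set followed the class of the array. The 4 low-median arrays averaged 11.01 and the 5 high-median arrays 7.79, without overlap, as was the case for 2 of the 14 members and for 21.9% of all tested probe sets (11.2% higher and 10.8% lower in the low class). With array class as a term the CR minus MC change was -0.02 ± 1.04. Among low-median arrays alone, the 3 CR samples differed from YC sample 1 by -0.19 on average, a value with no test since it rests on a single YC sample. Though it rests on the MC values under the filter, the CR minus MC change was called with the CR and MC arrays alone in the fit (adjusted p = 0.0171), with array weights (adjusted p = 0.00833) and without YC sample 2 (adjusted p = 0.0351).

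**Figure D2:**
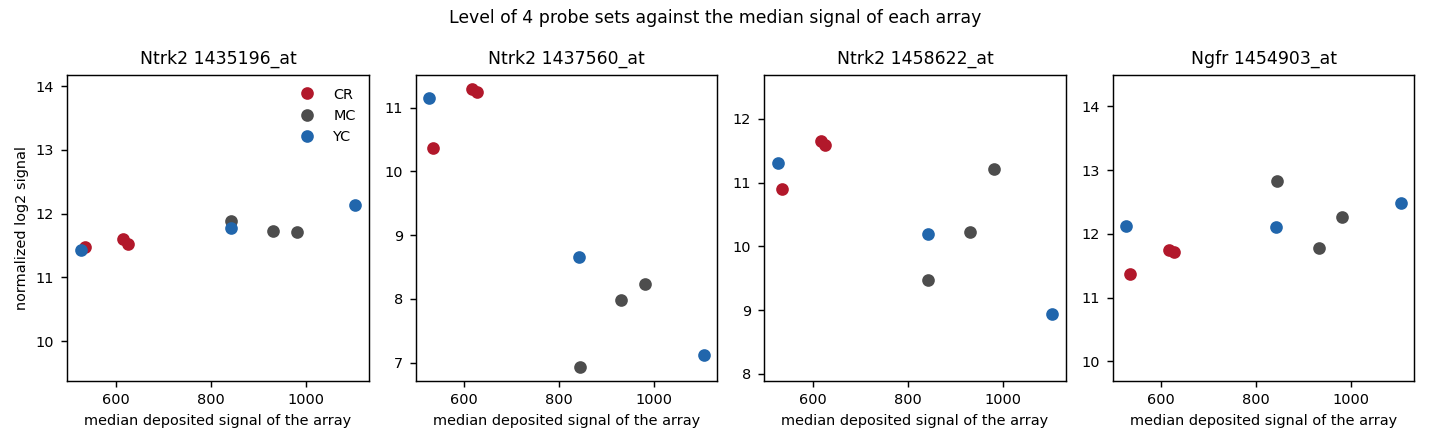
Normalized log2 signal of Ntrk2 1437560_at, 1458622_at and 1435196_at and of Ngfr 1454903_at (vertical axis) against the median deposited signal of each array (horizontal axis), with points coloured by CR, MC and YC (n = 3 each). The CR samples and YC sample 1 have medians between 526.8 and 626.6, and for Ntrk2 1437560_at these 4 arrays lie between 10.36 and 11.30.

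The summed signal of brain tissue markers was also higher in the low-median arrays than in the high-median arrays. Of 20 measured brain markers, 19 had positive CR minus MC changes, with a median of 1.24 beside 0.08 over all probe sets and 0 past the threshold. Their summed normalized signal ran from 74000 to 129000 in CR samples, from 37300 to 42100 in MC samples and from 30100 to 60000 in YC samples. The sum was 129000 in CR sample 1, 77900 in CR sample 2, 74000 in CR sample 3 and 60000 in YC sample 1. The CR minus MC count of called brain markers was 10 with array weights, 10 with the CR and MC arrays alone, 9 without YC sample 2 and 1 without YC sample 1. Over all probe sets that count ran from 0 to 3397 across the alternatives. TrkB is abundant in brain neurons and astrocytes, and the part of brain RNA in the Ntrk2 values was not tested.

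Probe set 1458622_at of Ntrk2 showed a weaker form of that arrangement. Its log2 signals were 10.90, 11.65 and 11.59 in CR samples, against 10.23, 9.47 and 11.22 in MC samples, and 11.31, 8.94 and 10.19 in YC samples. MC sample 3 reached into the CR range. The change was 1.07 ± 0.60 for CR minus MC (limma adjusted p = 0.347), 0.16 ± 0.60 for MC minus YC and 1.23 ± 0.60 for CR minus YC (adjusted p = 0.465). With array class as a term CR minus MC was -0.67 ± 0.89.

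The remaining tested Ntrk2 probe sets differed in sign. Probe set 1435305_at had 9.65, 10.41 and 10.25 in CR samples, against 8.08, 9.19 and 10.12 in MC samples and 9.52, 9.34 and 9.24 in YC samples. All CR samples lay above all YC samples, as did 11.4% of tested probe sets, and CR minus YC was 0.74 ± 0.53 (limma adjusted p = 0.544). CR minus MC was 0.98 ± 0.53 (adjusted p = 0.336), 0.46 without MC sample 1 and 1.48 without MC sample 3. In contrast, 1446712_at had 8.40, 8.58 and 9.29 in CR samples against a range of 8.88 to 10.09 in MC samples, a change of -0.90 ± 0.52 (adjusted p = 0.361). The Ntrk2 probe sets 1420837_at and 1444121_at were under the filter, with means of 7.35 and 8.42, and their changes lay between -0.40 and 0.30.

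**Figure D3:**
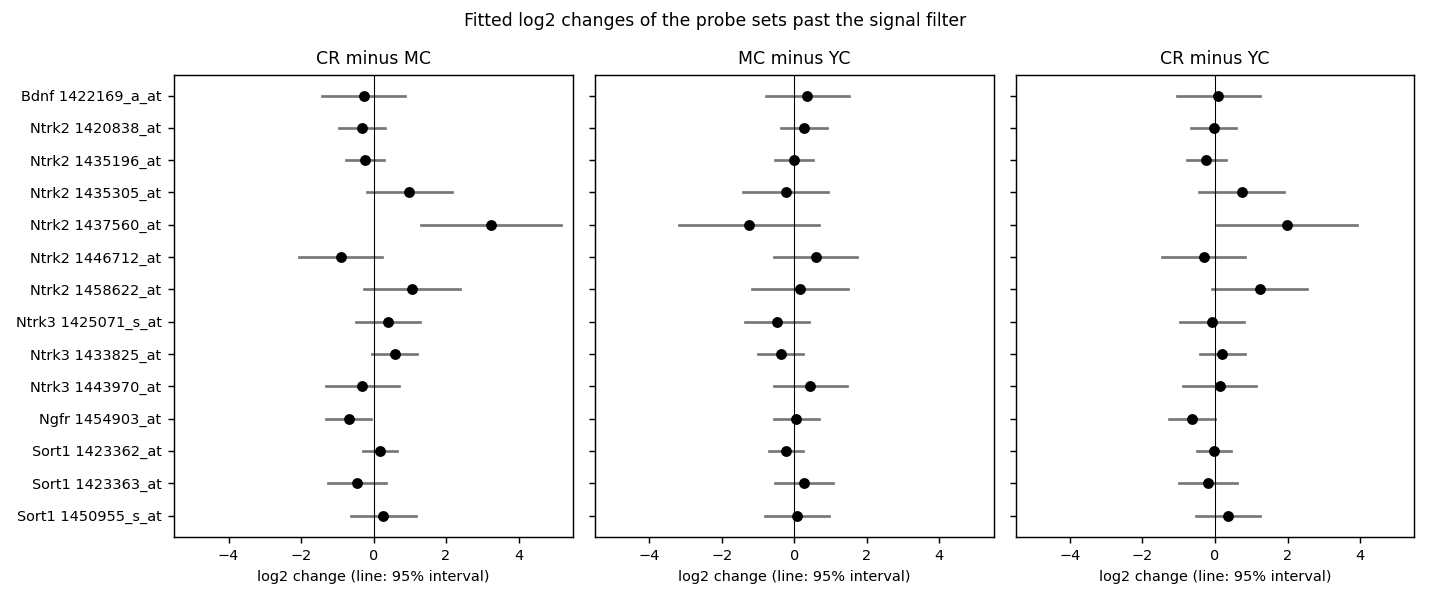
Fitted log2 changes of the 14 tested probe sets for CR minus MC, MC minus YC and CR minus YC (horizontal axes, log2 units), with points for the estimate and lines for the 95% interval. The interval excludes 0 for Ntrk2 1437560_at (1.31 to 5.17) and Ngfr 1454903_at (-1.31 to -0.06) in CR minus MC and for the same probe sets in CR minus YC (0.06 to 3.92 and -1.26 to -0.01), before adjustment for the number of probe sets tested.

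Ntrk3, which encodes the NT-3 receptor TrkC, was measured best by probe set 1433825_at. It had log2 signals of 11.03, 11.49 and 11.39 in CR samples, against 11.14, 10.51 and 10.53 in MC samples and 11.04, 11.05 and 11.22 in YC samples. MC samples 2 and 3 were the lowest of the 9, while MC sample 1 lay among the other groups. The change was 0.58 ± 0.28 for CR minus MC (limma adjusted p = 0.296, interval -0.05 to 1.20). For MC minus YC it was -0.37 ± 0.28 (adjusted p = 1) and for CR minus YC 0.20 ± 0.28 (adjusted p = 0.742). It kept its positive sign for CR minus MC in all 21 alternatives, between 0.47 and 1.13, and its negative sign for MC minus YC in all 22, between -0.59 and -0.27. The alternatives draw on the same 9 arrays.

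The other tested Ntrk3 probe sets did not share one direction. Probe set 1425071_s_at had 9.85, 9.93 and 9.73 in CR samples, against 9.80, 9.63 and 8.92 in MC samples, a change of 0.39 ± 0.40 that turned to -0.19 in the table as deposited. Probe set 1443970_at had 8.87, 9.96 and 9.10 in CR samples against 9.70, 9.65 and 9.50 in MC samples, a change of -0.31 ± 0.46. Of the 5 Ntrk3 probe sets under the filter, 4 had positive CR minus MC estimates, up to 2.06 ± 0.82 for 1447723_at, whose deposited signals were 216, 346 and 196 in CR samples and 165, 39 and 82 in MC samples. The exception, 1426003_at, had an estimate of -1.17 ± 1.13. It showed the widest young group, with signals of 15, 2097 and 1526 in YC samples. Both followed array class without overlap, in opposite directions.

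Ngfr encodes p75, which lacks a kinase and is carried by Schwann cells and other glia as well as neurons. Its 1 tested probe set, 1454903_at, had log2 signals of 11.37, 11.74 and 11.71 in CR samples, against 11.78, 12.83 and 12.27 in MC samples and 12.12, 12.49 and 12.11 in YC samples. After quantile normalization all CR samples lay below all samples of both control groups, as 18.2% of tested probe sets did against MC and 9.1% against YC. In deposited signals they overlapped MC, with 2700, 3594 and 3492 in CR samples against 3343, 7072 and 4404 in MC samples. The change was -0.69 ± 0.28 for CR minus MC, a 1.61-fold difference (limma adjusted p = 0.24, unadjusted p = 0.0339). For CR minus YC it was -0.63 ± 0.28 (adjusted p = 0.462), and for MC minus YC 0.06 ± 0.28 (adjusted p = 1, interval -0.57 to 0.68). Without MC sample 2 CR minus MC was -0.42, and with median centring it was 0.08 ± 0.43. Within low-median arrays the CR samples differed from YC sample 1 by -0.51, again with no test.

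Beside it, Schwann and satellite glia markers showed no common direction between CR and MC samples. Of 14 measured markers 7 had positive and 7 negative changes, with a median of 0.01 and 0 past the threshold, and their summed signal ran from 214000 to 283000 in CR samples and from 200000 to 257000 in MC samples. The CR minus MC count was 1 with array weights and 1 with the CR and MC arrays alone. Over all probe sets that count ran from 0 to 3397 across the alternatives.

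The dim Ngfr probe set 1421241_at stood apart from the bright one. Its deposited signals were 10, 39 and 56 in CR samples, 287, 86 and 683 in MC samples, and 21, 91 and 33 in YC samples. It ranked at the 4.5th percentile of mean signal and was not tested, and its unfiltered estimates were 2.06 ± 0.71 for MC minus YC and -1.88 ± 0.71 for CR minus MC. On the normalized scale all MC samples were above all CR and YC samples, with MC sample 2 at 6.44 and CR sample 3 at 6.42. In deposited signals MC sample 2, at 86, lay below YC sample 2, at 91. Among tested probe sets, all CR samples lay below all MC samples for 18.2%, and all MC samples above all YC samples for 2.97%. The last Ngfr probe set, 1450177_at, at the 4.8th percentile, had an estimate of 1.01 ± 0.64 for CR minus MC, opposite in sign to both others.

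Sort1 encodes sortilin, the partner of p75 for pro-neurotrophins and a sorting receptor of the secretory pathway. Its brightest probe set, 1423362_at, had log2 signals of 12.62, 12.87 and 12.64 in CR samples, 12.70, 12.14 and 12.73 in MC samples, and 12.73, 12.79 and 12.71 in YC samples. MC sample 2 was the one low value. The change was 0.18 ± 0.21 for CR minus MC (limma adjusted p = 0.641, interval -0.28 to 0.65) and -0.22 ± 0.21 for MC minus YC (interval -0.69 to 0.25). Without MC sample 2 the CR minus MC change was -0.01. The deposited signals did not overlap, at 7387, 8616 and 7116 in CR samples and 5988, 4386 and 5852 in MC samples, and the change was 0.52 in the table as deposited and 1.14 with median centring.

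Probe set 1423363_at of Sort1 had 10.66, 10.63 and 10.67 in CR samples, against 11.69, 11.30 and 10.33 in MC samples, where the 3 restricted samples were nearly equal and the controls spread widely. Its change was -0.46 ± 0.36 (limma adjusted p = 0.492), and 0.01 with median centring. The third, 1450955_s_at, had 10.34, 10.13 and 10.45 in CR samples against 10.65, 9.90 and 9.55 in MC samples, a change of 0.27 ± 0.40 (adjusted p = 0.722) that was -0.12 in the table as deposited. Across the 3 Sort1 probe sets, MC minus YC changes lay between -0.22 and 0.27.

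The wider pathway gave no called gene in the fit of all arrays. Lists of 121 other genes were drawn up by role, and 95 had a probe set past the filter, each gene being represented by its brightest. For CR minus MC 0 of the 95 were called and 17 had an unadjusted p under 0.05 (limma), beside 18.5% of all probe sets, with 65 positive and 30 negative changes and a median of 0.19 beside 0.08 over all probe sets. In MC minus YC 0 were called and 4 had an unadjusted p under 0.05, beside 3.39% of all probe sets, with 49 positive and 46 negative changes and a median of 0.03. As the brightest probe set per gene, these differ from the full table in signal. With array weights 4 downstream signalling genes, 3 receptor adaptors, 2 responsive transcripts and 0 ligand genes were called for CR minus MC. With the CR and MC arrays alone 1 receptor adaptor and 2 responsive transcripts were called. Without YC sample 2 there was 1 downstream signalling gene. For CR minus YC without YC sample 1 there were 2 responsive transcripts. Across the alternatives the count over all probe sets ran from 0 to 3397 for CR minus MC and from 0 to 328 for CR minus YC.

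Among ligands, their processing enzymes and sortilin relatives, 4 of 8 measured genes had positive and 4 negative CR minus MC changes, with a median of -0.02. Pcsk5, a proprotein convertase, was at 1.71 ± 0.60 (limma adjusted p = 0.2) and Plat, tissue plasminogen activator, at 0.63 ± 0.27 (adjusted p = 0.257). In MC minus YC 3 were positive and 5 negative, with Pcsk5 at -2.02 ± 0.60 and Sorl1, a sortilin-related receptor, at 0.69 ± 0.30 (adjusted p = 1 for both). All 3 genes had a further tested probe set of opposite sign. The Pcsk5 MC mean of 8.06 lay under the filter of 8.95. Plat was higher in every low-median array than in every high-median array, as were 11.2% of tested probe sets. With array class as a term the Plat CR minus MC change was 0.00 ± 0.43.

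Among receptor adaptors, 25 of 35 had positive and 10 negative CR minus MC changes, with a median of 0.19. Ndn, which encodes the p75-binding protein necdin, was at 0.75 ± 0.27 and Sos2, an exchange factor for Ras, at 1.12 ± 0.42 (limma adjusted p = 0.209 and 0.215). Of the 6 other tested Ndn probe sets, 2 had the opposite sign. The named Ndn and Sos2 probe sets were both higher in every low-median array than in every high-median array, as were 11.2% of tested probe sets. Their changes were -0.03 and -0.22 once array class entered the model. With array weights both were called (limma adjusted p = 0.0224 and 0.0343), and Ndn also with the CR and MC arrays alone (adjusted p = 0.0463). For MC minus YC 12 were positive and 23 negative, led by Nradd, which encodes a p75-like death domain protein, at -1.47 ± 0.46 and the adaptor gene Sh2b3 at -1.37 ± 0.65 (adjusted p = 1 for both). The Nradd MC mean of 8.76 lay under the filter of 8.95.

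Among downstream signalling genes, 24 of 34 had positive and 10 negative CR minus MC changes, with a median of 0.18. The list, labelled kinases in the figure, also holds genes of GTPases (such as Rhoa and Rac1) and of transcription factors (such as Creb1 and Foxo3). Camk4, a calcium-dependent kinase, was at 3.21 ± 0.78 (limma adjusted p = 0.146) and Pik3r1, a regulatory subunit of phosphoinositide 3-kinase, at 1.27 ± 0.35 (adjusted p = 0.162). Both other tested Camk4 probe sets had the opposite sign for CR minus MC. The Camk4 MC mean of 8.01 lay under the filter of 8.95. Its low-median arrays all lay above its high-median arrays, as for 11.2% of tested probe sets. With array class as a term its CR minus MC change was 2.91 ± 1.45. Though it rests on those MC values, the Camk4 change was called without YC sample 2 (3.28, limma adjusted p = 0.0483) and with array weights (2.74, adjusted p = 0.0175). The Pik3r1 change was called with array weights (1.09, limma adjusted p = 0.017). For MC minus YC 21 were positive and 13 negative, with Camk4 at -2.48 ± 0.78 and Map3k3 at -0.64 ± 0.34 (adjusted p = 1 for both). Map3k3 was also higher in every low-median array than in every high-median array. With array class as a term its MC minus YC change was -0.54 ± 0.37.

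Among transcripts that neurotrophins are known to induce in neurons, 12 of 18 had positive and 6 negative CR minus MC changes, with a median of 0.21. The members with the smallest p were negative: Fosb, an immediate early transcription factor gene, at -2.26 ± 0.70 and Plaur, the urokinase receptor gene, at -1.24 ± 0.40 (limma adjusted p = 0.183 and 0.188). The Fosb CR mean of 7.57 lay under the filter of 8.95. With array weights Plaur was called (-1.09, limma adjusted p = 0.0366). Plaur was lower in every low-median array than in every high-median array, as were 10.8% of tested probe sets. Its change was -0.67 ± 0.70 with array class as a term. For MC minus YC 13 were positive and 5 negative, with the scaffold gene Homer1 at -1.33 ± 0.67 and Egr3, another immediate early gene, at -1.03 ± 0.57 (adjusted p = 1 for both). Both other Homer1 probe sets had the opposite sign. Egr3 was higher in every low-median array than in every high-median array, as were 11.2% of tested probe sets. With array class as a term the Egr3 MC minus YC change was -0.40 ± 0.48.

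**Figure D4:**
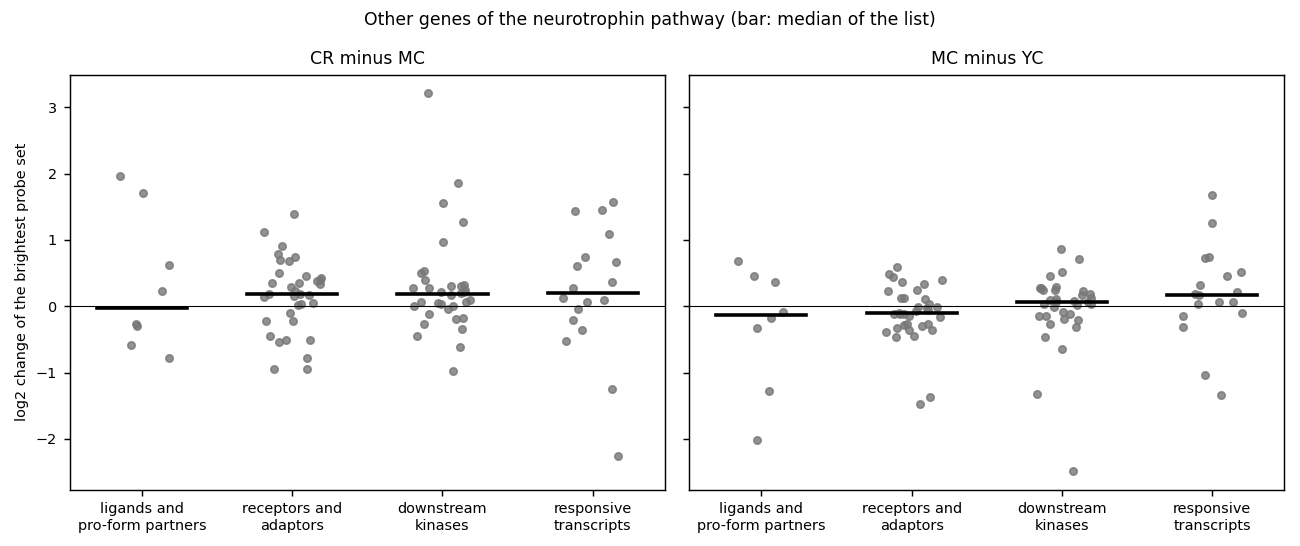
Log2 changes (vertical axis) of the other pathway genes in 4 lists by role, for CR minus MC and MC minus YC, with 1 point per gene by its brightest probe set and a bar at each list's median. The medians lie between -0.02 and 0.21 for CR minus MC and between -0.13 and 0.18 for MC minus YC, where the medians over all probe sets are 0.08 and 0.02.

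Marker transcripts of the cells that supply or receive neurotrophins varied as follows. Spiral ganglion neuron markers had positive CR minus MC changes in 16 of 23 cases (median 0.10) and positive MC minus YC changes in 20 of 23 (median 0.35). Supporting cell markers were positive in 9 of 11 cases for CR minus MC (median 0.87) and in 4 of 11 for MC minus YC (median -0.06). Their CR minus MC changes ran from -0.33 for Tectb to 1.78 for Fgfr3, with Otog at 0.13. Brain tissue markers were positive in 19 of 20 cases in that comparison. Whether the supporting cell and spiral ganglion neuron lists reported cochlear cells alone was not tested. Hair cell markers were positive in 3 of 7 cases for CR minus MC (median -0.54) and in 4 of 7 for MC minus YC (median 0.08). Fibroblast markers of meninges and vessel walls, where p75 can also be found, were positive in 5 of 11 cases for CR minus MC (median -0.02). With array class as a term the CR minus MC medians were -0.04, 0.30, 0.39 and -0.10 for these 4 lists in the order given. The sign thus turned for spiral ganglion neuron and hair cell markers. No gene of these 4 lists was past the threshold in the fit of all arrays. With array weights the CR minus MC counts were 7 spiral ganglion neuron, 5 supporting cell, 0 hair cell and 3 fibroblast markers, and with the CR and MC arrays alone they were 6, 3, 0 and 2 in the same order. Without YC sample 2 they were 5, 3, 0 and 0, and without YC sample 1 they were 3, 2, 0 and 1. Spiral ganglion neuron markers also had 1 call without YC sample 3. For CR minus YC without YC sample 1 the counts were 4, 2, 0 and 1. Over all probe sets the alternatives called from 0 to 3397 for CR minus MC and from 0 to 328 for CR minus YC. Skeletal muscle markers were lower in CR than in MC samples for 25 of 25 genes (median -2.28), and 17 were called (limma adjusted p under 0.05), with summed signals of 336000 to 472000 in CR samples against 1170000 to 1700000 in MC samples. The median stayed between -2.4 and -2.11 when each array was left out. But the count of calls was 0 without CR sample 2, CR sample 3, MC sample 1 or MC sample 3, and 1 without CR sample 1. Median centring, the replicate block, the array median as a covariate and a fit without the variance trend also gave 0. The table as deposited gave 5. Once array class entered the model the count was 0 and the median was -1.51. There Myh2 was at -4.24 (reported -4.31), Xirp1 at -2.90 (reported -2.87) and Csrp3 at -1.57 (reported -2.54). The part of these cell types in the neurotrophin and receptor values was not tested.

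Likeness of pattern was measured as the root-mean-square difference between centred log2 values over the 9 arrays, for the brightest probe set of each named gene. Bdnf lay nearest to Dock8 and Ccdc181 (0.33 each), beside an SD of its own of 0.63 across arrays. The bright Ntrk2 probe set 1420838_at lay nearest to Caly (0.09) and Dis3l2 (0.12), and Ntrk3 1433825_at to Pacrgl (0.12) and Arid1a (0.14). Ngfr lay nearest to Galnt3 (0.16) and Klhl12 (0.19), and Sort1 1423362_at to Tent4b (0.08) and Adipor2 (0.09). Ntrk2 1437560_at, added after its values were seen, lay nearest to Fat2 (0.47) and Mdn1 (0.54), with an SD of its own of 1.80. The arrays share their scaling and classes, and among 13702 genes some lie near any pattern.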

How the data were processed

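Signals of 9 single-colour Affymetrix arrays were used as deposited, as linear intensity per probe set. The submitters' processing notes name GCOS 1.3, with no signal algorithm, scaling target or detection calls named. Computed from the deposited values, trimmed mean signals were 1493 to 1496 on every array, and medians ran from 526.8 to 1103.9.

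Values were transformed to log2(signal + 16), quantile normalized and filtered at the 40th percentile of mean log2 signal. The added 16 understates changes of dim probe sets. All 9 arrays were fitted in limma 3.58.1 under R 4.3.3 (lmFit, eBayes with a variance trend), with Benjamini-Hochberg adjustment over 27022 probe sets. The samples are separate pools, and 3 per group limit precision: the median SE was 0.43. Symbols were updated through gene IDs of GRCm38.p6, which matched 34741 of 34945 single-symbol probe sets. On simulated data for MC minus YC (27022 probe sets), the fit called 8%, 34%, 56% and 80% of the groups of 50 simulated at log2 sizes of 1, 2, 3 and 4.

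Members and gene lists were chosen with earlier results of these data known. From each pathway list the 2 genes with the smallest p in CR minus MC and in MC minus YC are named. Alternatives changed the pseudocount, filter, scaling, variance model, array weights, array class, replicate block and samples included.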

Additional observations from a re-analysis of the deposited data

How the results depend on the processing

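The count of called neurotrophin and receptor probe sets was 0 in all 22 alternatives for MC minus YC and for CR minus YC. For CR minus MC it was 0 in 18 of 21 alternatives. It was 2 with array weights (Ntrk2 1437560_at and 1458622_at) and 1 with the CR and MC arrays alone in the fit (Ntrk2 1437560_at), and it ranged from 0 to 1 when each array was left out, with the call made without YC sample 2. The cause was not tested. Over all probe sets the CR minus MC count ran from 0 to 3397. With the replicate number as a block the member count was 0 in each comparison, and the smallest member adjusted p for CR minus MC was 0.193. Samples share only a number: deviations of same-numbered samples correlated between -0.29 and 0.27, and 6 of 18 sample comparisons correlated best with their own number. Of 891 log2 changes of the 14 probe sets under alternatives, 68 had the opposite sign to the reported value, none of them called. Leaving out 1 array moved the change by over 1.5 times for 9 of the 14 in CR minus MC, 13 in MC minus YC and 12 in CR minus YC, none of them called as reported. CR minus MC cannot be fitted within an array class, since each class holds only one of those groups. Array class as a term rests on the YC samples alone. Probe sets with signals near background carry little information about the absence of a change.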
